A study of Homo sapiens with 12 samples.

Results

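The comparison asks what the EZH2 inhibitor tazemetostat did to gene expression in breast cancer cells in which AKT was inhibited as well. SUM149PT cells in 4 groups were profiled by sequencing of polyadenylated RNA, with 3 libraries each. SUM149PT is an established cell line of inflammatory breast cancer without hormone receptors or amplified ERBB2. The combination group was held in 5 µM tazemetostat from day -5 and received 5 µM of the AKT inhibitor ipatasertib together with 5 µM tazemetostat on day 0. The ipatasertib group was held in the solvent DMSO instead and received 5 µM ipatasertib alone on day 0. The tazemetostat group had 5 µM tazemetostat from day -5 and no ipatasertib, and the DMSO group had neither inhibitor. All groups were plated at 250000 cells per dish, were changed to medium with 2% serum on day 0 and were collected 24 h later. The combination and ipatasertib libraries therefore differ in tazemetostat alone, which was given for longer than ipatasertib. The tazemetostat and DMSO libraries show the same addition without ipatasertib. Of 23228 genes in the files, 14874 passed a filter on low counts and make up the comparison.

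EZH2 is the catalytic subunit of Polycomb repressive complex 2 (PRC2). It places methyl groups on lysine 27 of histone H3, a mark of repressed genes that is typical of promoters of developmental regulators in cells that do not use them. An EZH2 inhibitor leaves the protein in place and blocks its activity, and marks already present are lost as cells divide. AKT relays growth factor signals from PI3K and keeps FOXO transcription factors out of the nucleus, so that its inhibition is known to switch on FOXO-induced genes and receptor feedback.

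The promoters of 4 genes are printed to show the kinds of gene that the results turn on, taken from RefSeq on build GRCh38.p14 as the 250 bases before the start and the first 50 of the transcript. IGFBP5 (chr2:216695500-216695799, minus strand) and TIMP3 (chr22:32801455-32801754, plus strand) rose, KRT5 (chr12:52520345-52520644, minus strand) fell, and MCM10 (chr10:13161308-13161607, plus strand) stands for the DNA replication genes. Capitals mark the dinucleotide CG, which reads the same on both strands.
IGFBP5: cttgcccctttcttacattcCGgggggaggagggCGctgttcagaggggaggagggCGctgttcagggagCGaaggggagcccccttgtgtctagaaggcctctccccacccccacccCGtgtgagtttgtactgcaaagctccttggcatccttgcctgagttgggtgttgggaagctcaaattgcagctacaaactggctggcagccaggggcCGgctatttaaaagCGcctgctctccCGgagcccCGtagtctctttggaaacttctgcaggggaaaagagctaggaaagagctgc
TIMP3: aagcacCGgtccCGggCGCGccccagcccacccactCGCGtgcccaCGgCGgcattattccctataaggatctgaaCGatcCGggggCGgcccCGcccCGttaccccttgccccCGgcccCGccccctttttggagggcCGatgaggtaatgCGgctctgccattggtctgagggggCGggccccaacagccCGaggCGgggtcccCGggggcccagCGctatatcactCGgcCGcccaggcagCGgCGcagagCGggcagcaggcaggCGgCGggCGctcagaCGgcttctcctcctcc
KRT5: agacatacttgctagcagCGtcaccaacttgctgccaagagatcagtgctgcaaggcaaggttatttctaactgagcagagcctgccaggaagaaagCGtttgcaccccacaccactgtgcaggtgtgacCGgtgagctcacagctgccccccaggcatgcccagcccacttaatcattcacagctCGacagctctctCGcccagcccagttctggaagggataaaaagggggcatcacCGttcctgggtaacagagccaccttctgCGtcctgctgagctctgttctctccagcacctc
MCM10: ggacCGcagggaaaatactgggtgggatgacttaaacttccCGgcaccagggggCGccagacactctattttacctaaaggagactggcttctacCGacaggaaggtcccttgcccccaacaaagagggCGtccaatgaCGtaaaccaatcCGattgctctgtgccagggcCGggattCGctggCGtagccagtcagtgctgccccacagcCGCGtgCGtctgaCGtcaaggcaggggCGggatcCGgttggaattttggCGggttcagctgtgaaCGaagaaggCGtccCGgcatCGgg
The windows hold 9 CG in IGFBP5, 31 in TIMP3, 7 in KRT5 and 21 in MCM10, against a median of 14 in the 27305 promoters of the table, of which 95.8% hold at least 1. TIMP3 lies on the CG-rich side, with as many CG or more in 20.4% of promoters. KRT5 lies on the poor side, with as many or more in 62.5%. Among these 4 genes the risers do not share a CG-rich window, since IGFBP5 lies below the median. No methylation or binding was measured here.

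The libraries held 26024012 to 35417607 gene counts in the combination group, 22355242 to 39001543 in the ipatasertib group, 43226082 to 49970540 in the tazemetostat group and 32470808 to 44924160 in the DMSO group. Levels are given as CPM, the gene's counts scaled to a common library size, and are not corrected for gene length, so they are compared between groups and not between genes. Combination B and tazemetostat A differed most from their replicates. Their chi-square statistics per degree of freedom were 14.4 to 24.9 and 17.3 to 19.1, against 2.64 to 6.68 for every other pair within a group. The cells carried epithelial markers, while markers not expected in the line were not all absent. EPCAM stood at 343 and 337 CPM and KRT8 at 493 and 517 CPM in combination and ipatasertib libraries. The hormone receptor gene PGR had 8 and 0 counts summed over these groups, CD3E of T cells 2 and 3, and ADIPOQ of fat cells 0 and 1. In contrast, the leukocyte marker CD68 had 21963 and 24797 counts and PECAM1 of endothelium 399 and 266. ESR1, the estrogen receptor gene, was low, at 3.87 and 3.41 CPM. The leukocyte gene PTPRC was at 1.47, 2.20 and 1.55 CPM in the combination libraries, against 0.577, 0.722 and 0.652 CPM in the ipatasertib libraries, a low level that rose (log2 change 1.42, SE 0.25).

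Tazemetostat changed a large share of the transcriptome in the presence of ipatasertib. Most of its changes over 2-fold ran upward, mainly in genes that were low under ipatasertib. At an adjusted p under 0.05 by edgeR's quasi-likelihood test, 5823 genes differed, which is 39.1% of those tested. Of these, 3248 (21.8%) were higher with the combination than with ipatasertib alone and 2575 (17.3%) were lower. Among changes over 2-fold the balance was uneven, with 1047 genes higher (7.04%) and 129 lower (0.867%). Without combination B, 1059 were higher and 116 lower by over 2-fold, so that library did not set the balance. Part of it came from the filter, since 760 genes did not pass in the ipatasertib and DMSO libraries alone and had to be higher elsewhere. They held 414 of the 1047. Among the 14025 genes that passed both with and without tazemetostat, 633 were over 2-fold higher and 113 lower. The balance also differed by level with ipatasertib, which is itself the subtracted side of the comparison. Of 200 genes under 0.1 CPM with ipatasertib, 181 were over 2-fold higher and 0 lower. Such genes pass the filter mainly through other groups, so this outcome was favoured in advance. At 0.1 to 1 CPM 486 and 48 of 1853 genes were over 2-fold higher and lower. The counts were 313 and 38 of 3232 at 1 to 10 CPM, and 61 and 22 of 7183 at 10 to 100 CPM. Over 100 CPM the balance turned, with 6 of 2406 genes over 2-fold higher and 21 lower. The middle 90% of all log2 changes lay between -0.50 and 1.41, with a median of 0.01. Every combination library lay above every ipatasertib library for 3698 genes (24.9%), and below for 3270 (22%). Groups that do not overlap were thus common.

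IGFBP5, a secreted protein that binds insulin-like growth factors and is abundant in the involuting mammary gland, stood at 342, 271 and 299 CPM in the combination libraries, against 3.81, 4.79 and 5.52 CPM in the ipatasertib libraries. The groups lay far apart, with a 66.01-fold difference (log2 change 6.04, SE 0.11, edgeR adjusted p = 3.05e-18). TIMP3, a matrix-bound inhibitor of metalloproteinases, was at 52.5, 52.3 and 49.9 CPM with the combination and at 2.46, 1.94 and 3.13 CPM with ipatasertib, a log2 change of 4.37 (SE 0.13). CES1, a carboxylesterase of drug and lipid metabolism, was at 169.9, 189 and 183 CPM with the combination and at 28.2, 29.01 and 29.8 CPM with ipatasertib. No combination library of these 3 genes came near an ipatasertib library, as the plot of levels by library shows. CHRM3, a muscarinic acetylcholine receptor, rose by 3.27 on the log2 scale (SE 0.10), and F2R, the thrombin receptor, by 3.89 (SE 0.12). MGP, an inhibitor of calcification, rose by 2.17 (SE 0.07), and SLC7A8, an amino acid transporter, by 3.26 (SE 0.11). PPP2R2C, a regulatory subunit of protein phosphatase 2A, rose by 2.67 (SE 0.09), CAMK2N1, an inhibitor of calmodulin-dependent kinase II, by 1.62 (SE 0.06) and NEO1, a netrin receptor, by 2.22 (SE 0.08). These 10 genes had the smallest p-values among those that rose, with edgeR adjusted p from 3.05e-18 for IGFBP5 to 3.11e-14 for NEO1, and all 10 were also called higher with tazemetostat than with DMSO.

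**Figure D1:**
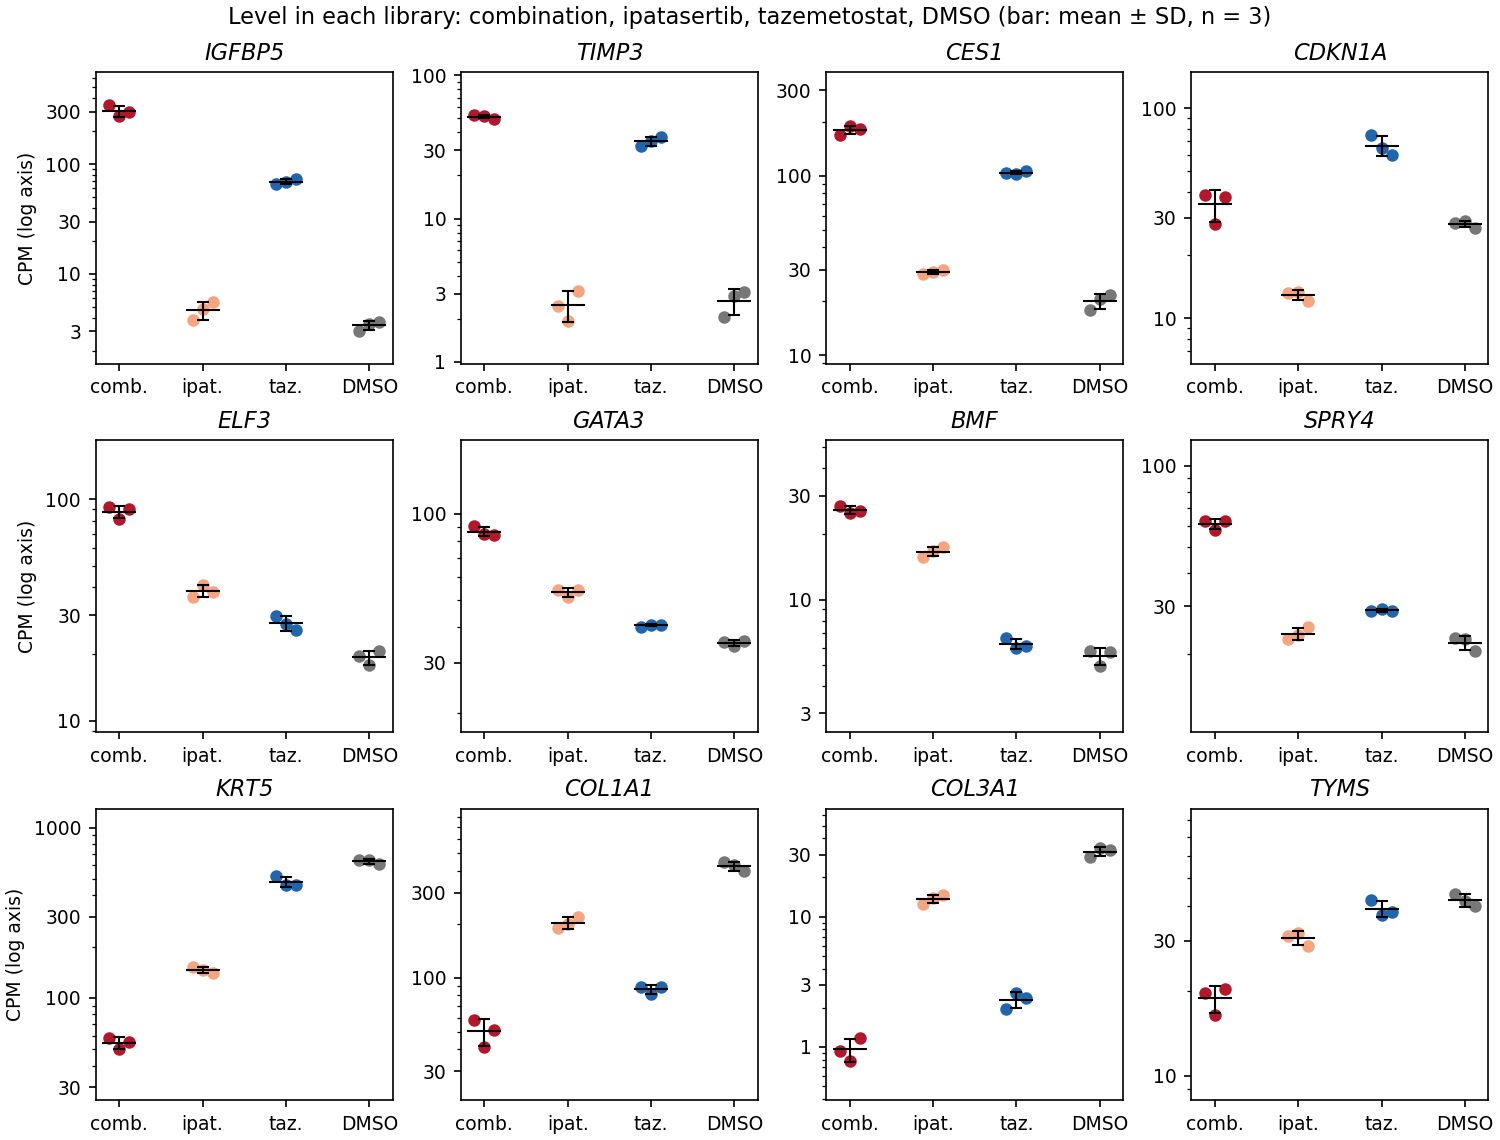
Level of 12 genes in each library, in CPM on a log axis, with the combination, ipatasertib, tazemetostat and DMSO groups from left to right; points are libraries and bars the mean ± SD (n = 3). IGFBP5 sits between 271 and 342 CPM with the combination and between 3.81 and 5.52 CPM with ipatasertib, while COL3A1 and KRT5 are lowest with the combination.

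The 12 largest rises among genes named by rule included many with hardly a read under ipatasertib. TMEM98, a transmembrane protein, had 107 counts over the combination libraries and 0 over the ipatasertib libraries, at least 34.8-fold higher against a limit of 3 counts over the group. TSHZ3, a zinc finger transcription factor, had 99 and 0 counts, at least 32.1-fold higher. With 1 to 3 counts under ipatasertib, the ratios of scaled counts carry wide intervals that cover counting error alone. NOS1, the neuronal nitric oxide synthase, had 964 counts with the combination and 3 with ipatasertib, a ratio of 313-fold (95% interval 107 to 1521). ZIC2, a zinc finger factor of neural development, had 326 and 2 counts, a ratio of 159-fold (95% interval 43.6 to 1317). IGF2BP1, a fetal RNA-binding protein, had 251 and 2 counts, a ratio of 122-fold (95% interval 33.5 to 1015). Their level stayed low, since ZIC2 reached 3.29, 3.65 and 3.70 CPM and IGF2BP1 2.90, 2.38 and 2.89 CPM in the combination libraries. KLK5, a secreted protease of skin, had a ratio of 146-fold (95% interval 49.8 to 713), CYTL1, a secreted cytokine-like protein, of 162-fold (95% interval 28.6 to 6426), and LAIR2, a secreted collagen receptor, of 131-fold (95% interval 23.03 to 5195). TP53I11 had a ratio of 64.8-fold (95% interval 17.6 to 540.5), the Notch ligand DLL1 of 45.5-fold (95% interval 15.2 to 223) and the homeobox gene MSX2 of 45.1-fold (95% interval 15.1 to 222). All 15 genes tested that had no count in any ipatasertib library were called higher. The filter favoured this outcome, since they could pass only through other groups. NOS1, IGF2BP1, KLK5, CYTL1, LAIR2, DLL1 and MSX2 likewise passed only through libraries with tazemetostat.

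Of 92 developmental transcription factors other than HOX genes, 63 were tested, and 35 rose while 7 fell (55.6% and 11.1% of those tested, against 21.8% and 17.3% of all genes). Without combination C, ipatasertib A or ipatasertib B, 4 fell. The median log2 change was 0.36, against 0.01 over all genes. Of the 63, 12 passed the filter only through libraries with tazemetostat. Without them 24 rose and the median was 0.20. ALX4, a homeobox factor of limb and skull patterning, was at 129, 98.1 and 109 CPM with the combination and at 36.9, 40.2 and 40.3 CPM with ipatasertib, so a gene already expressed rose as well. FOXQ1, a forkhead factor, rose to 20.8 ± 2.58 CPM with the combination, against 7.16 ± 0.271 CPM with ipatasertib (SD, n = 3 each), and LHX2, a LIM homeobox factor, to 6.54 ± 1.07 CPM, against 1.03 ± 0.0670 CPM. SOX9, a factor of progenitor cells that is already well expressed here, rose by 0.61 (SE 0.05). MEIS1, a HOX cofactor, moved the other way and fell by 0.46 on the log2 scale (SE 0.07).

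Of 39 HOX genes, 23 were tested, 11 rose and 1 fell (47.8% and 4.35%, against 21.8% and 17.3% of all genes). Of the 23, 6 passed only through libraries with tazemetostat. Without them 6 rose and the median log2 change was 0.03, against 0.14 with them. HOXB7 was at 1.86, 1.90 and 1.72 CPM with the combination and at 0.0502, 0.0761 and 0.0869 CPM with ipatasertib, and HOXA13 at 2.01, 1.45 and 1.63 CPM and 0.602, 0.494 and 0.304 CPM. HOXD8 had 79 counts with the combination and 3 with ipatasertib, and HOXB9 had 51 and 2. HOXB7, HOXD8 and HOXB9 are among the 6 that passed only through libraries with tazemetostat, while HOXA13 is not. HOXC10 was at 90.9 ± 3.54 CPM with the combination and 88.7 ± 3.18 CPM with ipatasertib (SD, n = 3 each), which did not pass the test. HOXA10, a posterior HOX factor, was the 1 that fell, by 0.19 on the log2 scale (SE 0.07). No HOX gene was called lower without combination B, combination C, ipatasertib A or ipatasertib C, and 2 were without combination A, tazemetostat A, DMSO A or DMSO B.

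Among the PRC2 subunits, EZH2 RNA was at 36.6, 42.9 and 36.00 CPM in the combination libraries and at 47.8, 49.4 and 46.3 CPM in the ipatasertib libraries. It fell by 0.32 on the log2 scale (SE 0.07, edgeR adjusted p = 0.00196), which says nothing of the enzyme's activity. Of 12 subunits and cofactors, 4 fell and 1 rose (33.3% and 8.33%, against 17.3% and 21.8% of all genes). Without combination B 7 fell, and without combination C, ipatasertib A or ipatasertib C 2 fell. The 1 rise was called without combination B or tazemetostat A, and lost when any other single library was left out. The others that fell were PHF19 (-0.29, SE 0.08) and MTF2 (-0.25, SE 0.08), which help bring PRC2 to chromatin, and the core subunit SUZ12 (-0.16, SE 0.06, edgeR adjusted p = 0.0491). EED, the subunit that reads the mark, was at 49.1 ± 5.79 CPM with the combination and 51.9 ± 2.72 CPM with ipatasertib (SD, n = 3 each), and did not pass. C17orf96, a PRC2 cofactor, rose by 0.26 (SE 0.10, edgeR adjusted p = 0.0489), although its libraries overlapped. AKT1 fell by 0.18 (SE 0.07, edgeR adjusted p = 0.0419), and AKT2 (-0.13, SE 0.07) did not pass. The calls of SUZ12 and AKT1 were each lost in 8 of 12 fits that left out 1 library.

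Most of the response was the same kind that tazemetostat gave without ipatasertib. In that comparison 3737 genes were higher (25.1%) and 3112 lower (20.9%) with tazemetostat than with DMSO. Of the 3248 genes that rose with ipatasertib present, 2418 (74.4%) also rose without it, which is 64.7% of the 3737. Of the 2575 that fell, 1655 (64.3%) also fell without it, or 53.2% of the 3112. Only 39 genes that rose with ipatasertib fell without it, and 55 that fell with ipatasertib rose without it. Across the 14874 genes the log2 changes of the comparisons had a Pearson r of 0.867 and a Spearman rho of 0.735. The comparisons share no library, but genes are not independent replicates and all libraries entered 1 fit. Over the 12345 genes with at least 1 CPM in every group, r was 0.831 and rho 0.725.

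The difference between the responses was tested as an interaction, the log2 change with ipatasertib minus the log2 change without it. It was called for 539 genes, 278 positive (1.87%) and 261 negative (1.75%). This count depended strongly on combination B, and without that library 2482 genes were called. The largest positive value among the genes named by rule was that of EGR2, an immediate early zinc finger factor. EGR2 was at 2.97, 2.72 and 3.49 CPM with the combination and 0.401, 0.342 and 0.304 CPM with ipatasertib, but at 0.536, 0.558 and 0.482 CPM with tazemetostat and 0.352, 0.481 and 0.262 CPM with DMSO. The interaction was 2.58 (SE 0.40, edgeR adjusted p = 8.41e-04), so EGR2 stood high in the combination libraries alone. ITGB3, an integrin subunit, followed the same pattern, at 8.02, 7.14 and 8.03 CPM with the combination, 1.63, 1.56 and 1.91 CPM with ipatasertib, 2.12, 1.93 and 1.87 CPM with tazemetostat and 2.02, 2.26 and 2.22 CPM with DMSO (interaction 2.33, SE 0.19). TMEM100 (2.23), the potassium channel gene KCNJ2 (2.11), the TNF receptor family member TNFRSF19 (1.80) and C8orf84 (1.77) had the next largest positive interactions. Of these 6 genes, C8orf84 was the 1 called higher without ipatasertib too.

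The largest negative interactions were of genes that rose less, or fell, when ipatasertib was present. NXPH2, a neurexophilin, rose by 0.57 (SE 0.22) with ipatasertib and by 2.05 (SE 0.22) without it. CD22, a lectin of B cells found here at a low level, rose by 1.27 and by 2.63, and the alarmin cytokine IL33 by 0.33 and by 1.35. IL6, an inflammatory cytokine, changed direction, at 17.4, 22.4 and 19.1 CPM with the combination and 24.9, 25.2 and 22.8 CPM with ipatasertib, against 53.9, 51.7 and 57.6 CPM with tazemetostat and 31.2, 34.9 and 35.8 CPM with DMSO. It fell by 0.31 on the log2 scale (SE 0.09) with ipatasertib and rose by 0.68 (SE 0.08) without it. CNTNAP2, a neurexin family adhesion protein, did the same, with log2 changes of -0.53 (SE 0.07) and 0.43 (SE 0.06). KRT5 fell in both settings, but more with ipatasertib.

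**Figure D2:**
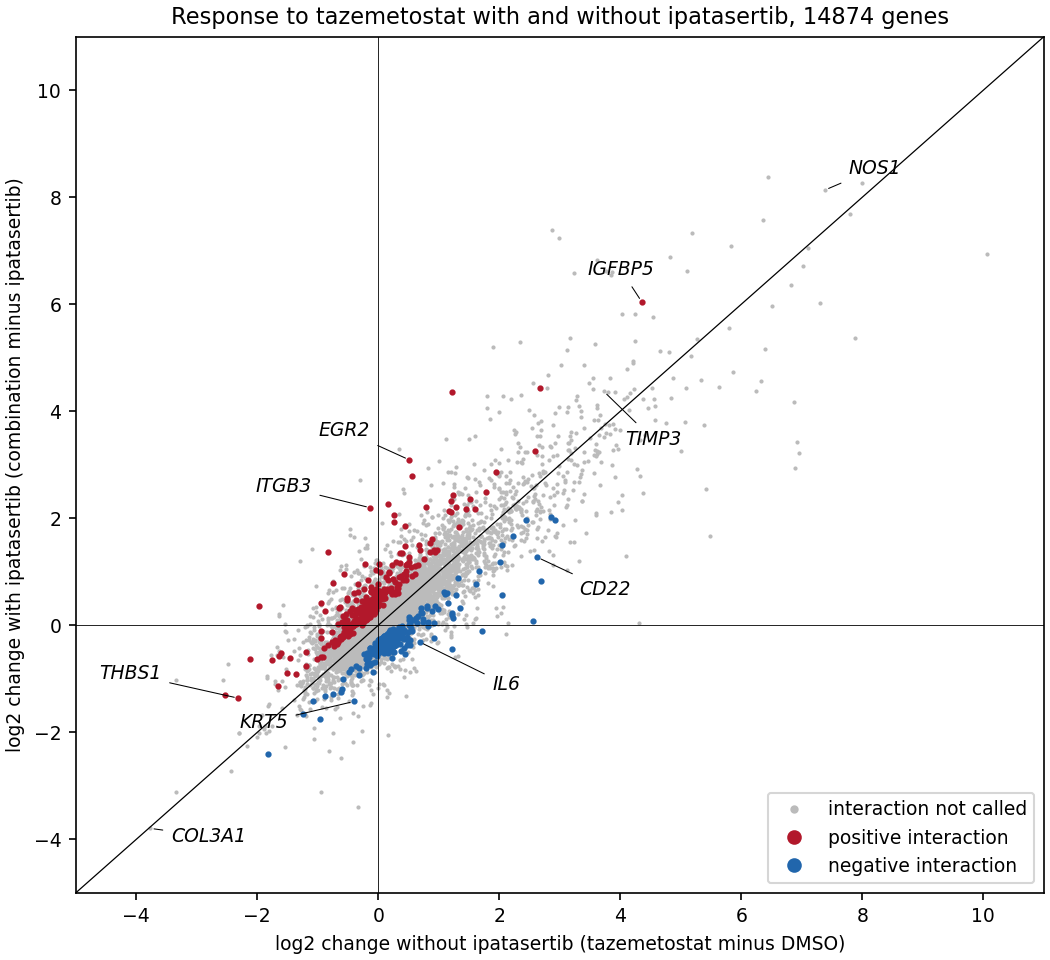
Log2 change of each of 14874 genes with ipatasertib (combination minus ipatasertib, y axis) against the change without it (tazemetostat minus DMSO, x axis); red and blue points are the 278 positive and 261 negative interactions and the diagonal marks equal change. Most genes follow the diagonal (Pearson r 0.867), EGR2 and ITGB3 stand above it and IL6 and KRT5 below.

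Of 25 markers of luminal breast epithelium tested, 10 rose and 3 fell, against 21.8% and 17.3% of all genes, and the median log2 change was 0.09. GATA3, the master regulator of luminal cells, was at 90.2, 84.98 and 84.2 CPM with the combination and at 54.1, 50.9 and 53.9 CPM with ipatasertib. The groups did not overlap, with a log2 change of 0.71 (SE 0.06, edgeR adjusted p = 8.13e-09). ELF3, an epithelial ETS factor, was at 92.1, 81.6 and 89.9 CPM and at 36.4, 41.2 and 38.04 CPM, and its relative EHF rose by 0.99 (SE 0.07). Without ipatasertib GATA3 rose by 0.21 (SE 0.06) and ELF3 by 0.51 (SE 0.08), and the interactions were called for both, at 0.50 (SE 0.08) and 0.68 (SE 0.11). The luminal keratin KRT19 rose by 0.71 (SE 0.07), while KRT8 (-0.07, SE 0.07) and KRT18 (-0.04, SE 0.07) did not pass. In all, 4 luminal markers had a positive interaction. It was 7 without combination B, and 2 without combination C, ipatasertib B, tazemetostat C or DMSO B.

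Basal and myoepithelial markers went both ways, with 14 lower and 11 higher of 32 (43.8% and 34.4%, against 17.3% and 21.8% of all genes). Their median was 0.02. KRT5, the keratin that defines basal cells, was at 58.5, 50.3 and 55.1 CPM with the combination and at 153, 146 and 141 CPM with ipatasertib. Every combination library was below every ipatasertib library, a 2.68-fold difference (log2 change -1.42, SE 0.07, edgeR adjusted p = 2.46e-12). Without ipatasertib KRT5 fell by 0.40 on the log2 scale (SE 0.06), and the interaction was -1.02 (SE 0.09, edgeR adjusted p = 1.76e-06). The endopeptidase MME fell by 1.23 on the log2 scale (SE 0.09), the caveolar protein gene CAV1 by 0.98 (SE 0.06) and the basal keratin KRT14 by 0.45 (SE 0.13). The hemidesmosome collagen COL17A1 went against these, at 32.1 ± 2.61 CPM with the combination and 9.10 ± 0.546 CPM with ipatasertib (SD, n = 3 each; log2 change 1.81, SE 0.08).

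Genes of mammary involution, the regression of the gland after lactation in which STAT3 signalling and cell death take part, were mixed. Of 35 tested, 15 rose and 9 fell (42.9% and 25.7%, against 21.8% and 17.3% of all genes), with a median of 0.20. Beside IGFBP5 and TIMP3, LCN2, a secreted iron-siderophore binder, stood at 296, 352 and 324 CPM with the combination and at 150.4, 154 and 135 CPM with ipatasertib. S100A9, a calcium-binding protein of inflamed epithelium, stood at 23.6, 23.03 and 26.8 CPM and at 4.99, 5.29 and 4.35 CPM. Without ipatasertib the log2 changes were 0.99 and 2.31, and neither gene had a called interaction (LCN2 0.16, SE 0.10; S100A9 0.01, SE 0.13). STAT3 itself rose by 0.26 (SE 0.06) with ipatasertib and did not pass without it (-0.07, SE 0.06), with an interaction of 0.33 (SE 0.08, edgeR adjusted p = 0.0245). IGFBP5 rose more with ipatasertib than without it, to 69.3 ± 3.27 CPM with tazemetostat, against 3.41 ± 0.331 CPM with DMSO (SD, n = 3 each), and its interaction was 1.69 (SE 0.17). Of the genes for milk and alveolar secretion, 7 of 18 were tested and 5 rose (21.8% of all genes did; without combination C, 3 rose), among them XDH, an enzyme of milk fat droplets (1.32, SE 0.09), and PLIN2, a coat protein of lipid droplets (0.84, SE 0.08). FABP3, a fatty acid carrier, rose by 0.68 (SE 0.21) and MFGE8, a milk fat globule protein, by 0.25 (SE 0.07). The casein genes CSN1S1, CSN2 and CSN3 and the milk protein gene LALBA did not pass the filter on low counts and were not tested.

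In the BCL2 family, which sets the threshold for apoptosis, 3 of 15 members tested rose (20%, near the 21.8% of all genes) and none fell by edgeR's quasi-likelihood test. At an unadjusted p under 0.05, 1 of the 15 was lower, DESeq2 called 1 lower, and without combination A 2 fell. BMF, a pro-apoptotic BH3-only protein, was at 26.9, 24.9 and 25.6 CPM with the combination and at 15.8, 16.7 and 17.3 CPM with ipatasertib. Its libraries did not overlap and the log2 change was 0.64 (SE 0.08, edgeR adjusted p = 2.62e-06). Without ipatasertib BMF was at 6.26 ± 0.334 CPM with tazemetostat and 5.49 ± 0.485 CPM with DMSO (SD, n = 3 each), which did not pass, and the interaction was called narrowly (0.45, SE 0.12, edgeR adjusted p = 0.047). No member had a called interaction with DESeq2 size factors or total-count scaling. Leaving out 1 library, a member had one without combination B, tazemetostat A or DMSO B, and none did without any of the others. HRK, another BH3-only gene, rose by 1.36 (SE 0.20), and BCL2, which protects cells from apoptosis, by 0.86 (SE 0.15). The other 12 members, among them BCL2L11 (-0.07, SE 0.08) and MCL1 (0.12, SE 0.05), did not pass.

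The extracellular matrix genes had the highest share of falls among the 28 lists. Of 18 fibrillar collagen and proteoglycan genes tested, 16 fell and none rose (88.9%, against 17.3% of all genes), with a median log2 change of -1.02. At an unadjusted edgeR p under 0.05, and with DESeq2, none was higher either, but without combination B 16 fell and 1 rose. COL3A1, the chain of type III collagen, was at 0.931, 0.781 and 1.17 CPM with the combination and at 12.6, 13.9 and 14.7 CPM with ipatasertib. COL1A1, a chain of type I collagen, was at 58.4, 41.3 and 51.3 CPM and at 190.3, 201 and 220.1 CPM. DCN, the proteoglycan decorin, was at 24.4, 35.7 and 31.97 CPM and at 127, 133 and 133 CPM. The groups were well apart for all 3 genes, with log2 changes of -3.79 (SE 0.15), -2.02 (SE 0.09) and -2.09 (SE 0.10). LUM, the proteoglycan lumican, fell by 2.72 (SE 0.14) while CREB3L1, which activates collagen transcription, fell by 2.01 (SE 0.12). Fibroblasts also express these collagens and proteoglycans, and PDGFRB, a receptor that marks them, was at 0.322, 0.298 and 0.245 CPM with the combination and 0.502, 0.304 and 0.391 CPM with ipatasertib, which did not pass. In bulk RNA, fewer cells that express a gene and less RNA per cell cannot be told apart.

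Without ipatasertib 16 of the 18 fell as well. COL3A1 was at 2.30 ± 0.318 CPM with tazemetostat and 31.6 ± 2.54 CPM with DMSO (SD, n = 3 each), and its interaction was -0.02 (SE 0.18). Among the 12 largest falls of genes named by rule, which average at least 1 CPM with ipatasertib, COL10A1, a collagen of cartilage, fell by 3.12 (SE 0.25), SCG2, a secretory granule protein, by 2.26 (SE 0.11), SPARC, a matricellular collagen binder, by 2.01 (SE 0.17), ADAMTS4, a proteoglycan-cleaving protease, by 2.02 (SE 0.18) and PLA2G2A, a secreted phospholipase, by 1.97 (SE 0.15). ODZ2, which encodes the adhesion protein teneurin-2, was at 14.1, 16.8 and 16.2 CPM with the combination and at 82.1, 82.8 and 85.5 CPM with ipatasertib. HSD11B1, which regenerates cortisol, fell by 2.48 (SE 0.32) and was the 1 of the 12 not called lower without ipatasertib (-0.62, SE 0.39). HAS2, which makes hyaluronan, fell by 1.95 (SE 0.08), NID2, a basement membrane protein, by 1.28 (SE 0.05), SLC8A1, a sodium-calcium exchanger, by 1.66 (SE 0.08) and GREM1, a secreted BMP antagonist, by 1.42 (SE 0.06). The 10 genes with the smallest p-values among those that fell had edgeR adjusted p from 6.28e-15 for ODZ2 to 2.61e-12 for SLC8A1.

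Of 36 genes tested for epithelial-mesenchymal transition, 27 fell and 4 rose (75% and 11.1%, against 17.3% and 21.8% of all genes). The median was -0.45. VIM, the intermediate filament of mesenchymal cells, was at 326, 381 and 349 CPM with the combination and at 745, 726 and 655 CPM with ipatasertib, a log2 change of -1.01 (SE 0.06). COL4A1, a basement membrane collagen, fell by 1.21 (SE 0.07). THBS1, a matricellular glycoprotein, was at 1722, 1620.0 and 1738 CPM with the combination and 4219.8, 4248 and 4591 CPM with ipatasertib, and fell less than it did without ipatasertib (-1.36 and -2.31; interaction 0.95, SE 0.08). SERPINE2, a protease inhibitor, went against the list and rose by 1.40 (SE 0.08). The others that rose were the adhesion receptor CD44 (0.55), the crosslinking enzyme LOX (0.27) and the matricellular protein TNC (0.20); without combination B, 3 rose. The list had 9 positive interactions and 1 negative, and 16 and 1 without combination B. Without combination C or ipatasertib A, 5 were positive.

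**Figure D3:**
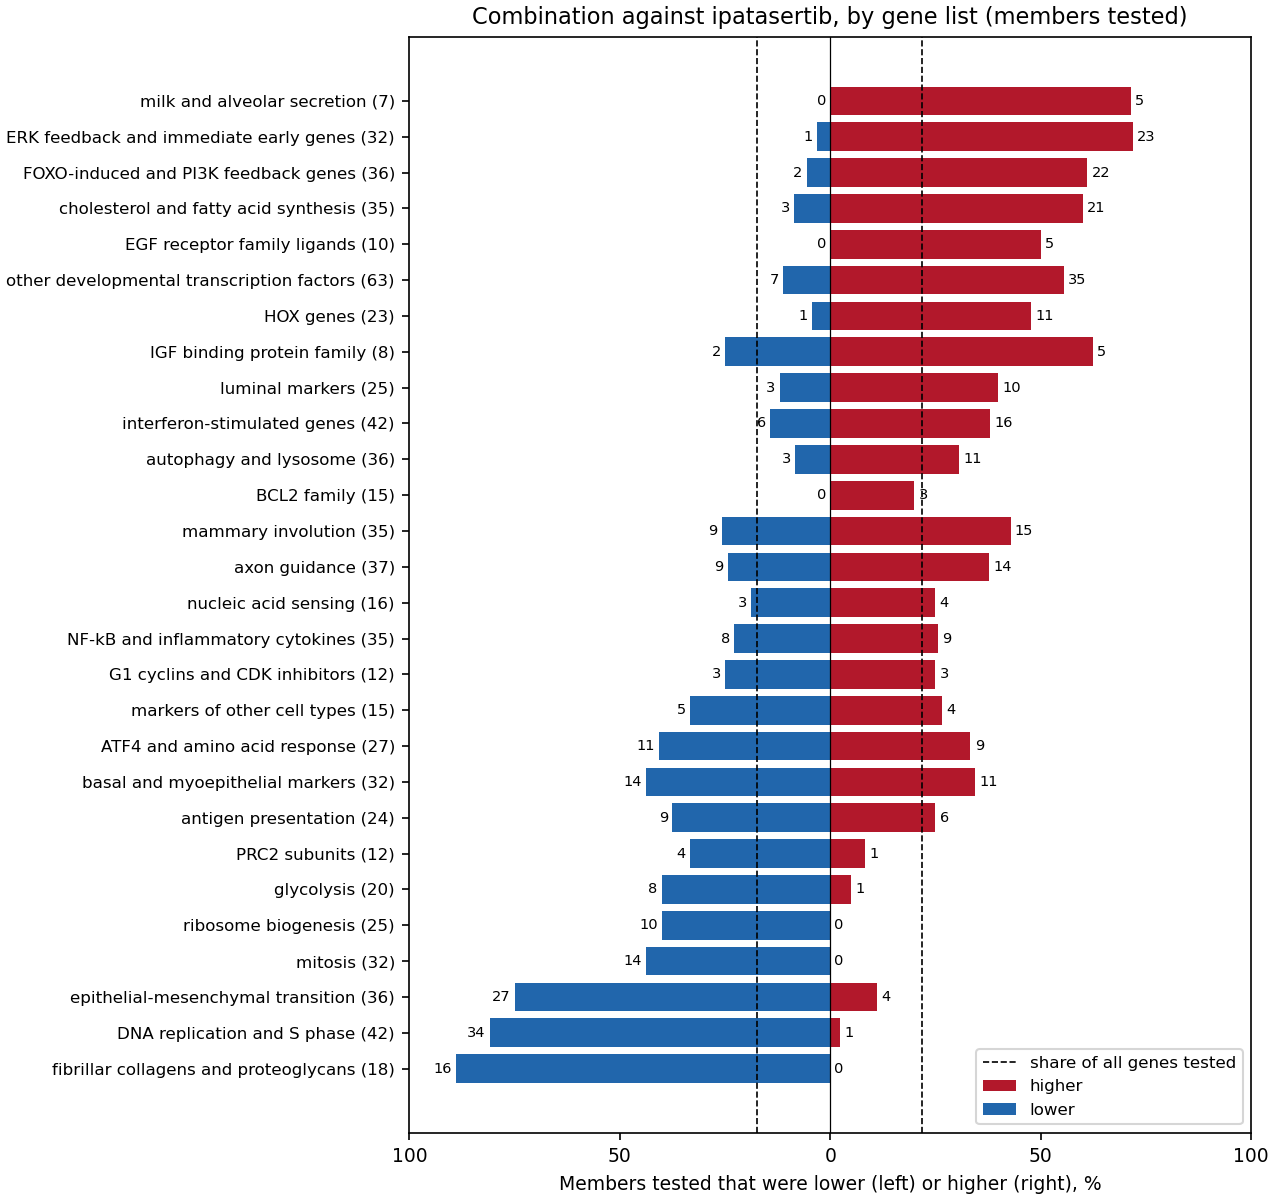
Share of the tested members of each of 28 gene lists that were lower (left, blue) or higher (right, red) with the combination than with ipatasertib; numbers at the bars count genes, those in parentheses the members tested, and dashed lines mark the shares over all 14874 genes (17.3% and 21.8%). Fibrillar collagens, DNA replication and epithelial-mesenchymal transition lie furthest to the left. ERK feedback genes and the 7 tested genes of milk and alveolar secretion, without caseins, lie to the right.

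Genes that report ERK signalling rose widely. ERK is the kinase at the end of the RAS pathway, which induces immediate early factors and the phosphatases and Sprouty proteins that restrain it. Of 32 such genes, all tested, 23 rose and 1 fell (71.9% and 3.1%, against 21.8% and 17.3% of all genes). The median was 0.41. SPRY4, a feedback inhibitor of receptor signalling, was at 62.1, 57.6 and 62.3 CPM with the combination and at 22.7, 23.5 and 25.04 CPM with ipatasertib. EGR1, an immediate early factor, was at 64.1, 55.2 and 68.2 CPM and at 14.3, 19.7 and 17.95 CPM, and DUSP6, the phosphatase that switches off ERK, at 50.9, 52.9 and 50.8 CPM and at 22.00, 24.9 and 23.4 CPM. None of these 3 genes overlapped between groups, which held upward for 24.9% of all genes. The log2 changes were 1.36 (SE 0.07), 1.86 (SE 0.11) and 1.14 (SE 0.08). SPRY4 (0.96, SE 0.10) and EGR1 (1.43, SE 0.15) were among the 6 members with a positive interaction, a count that was 16 without combination B. MYC, the growth-promoting factor, was the 1 that fell, by 0.66 (SE 0.06).

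Ligands of the EGF receptor family, which act upstream of ERK, rose at 5 of 10 tested (50%, against 21.8% of all genes). None fell by edgeR's test (17.3% of all genes did), at an unadjusted p under 0.05 or with DESeq2. TGFA was at 92.4, 98.1 and 91.1 CPM with the combination and at 49.6, 49.6 and 48.9 CPM with ipatasertib, a log2 change of 0.93 (SE 0.06). HBEGF was at 10.96, 13.7 and 12.8 CPM and at 4.36, 4.72 and 4.39 CPM, a change of 1.48 (SE 0.10). NRG1, a ligand of ERBB3 and ERBB4, was low, at 1.61, 1.79 and 1.47 CPM and at 0.828, 0.913 and 1.09 CPM, but at 4.75, 3.68 and 4.08 CPM with tazemetostat and 6.99, 7.43 and 6.51 CPM with DMSO. It rose by 0.80 (SE 0.20) with ipatasertib and fell by 0.74 (SE 0.12) without it (interaction 1.54, SE 0.23, edgeR adjusted p = 6.48e-04). TGFA, HBEGF and NRG1 had a positive interaction, and 3 members did whichever single library was left out. BTC, betacellulin, rose by 0.36 (SE 0.10), and NRG2 was near the limit of detection, at 0.333 ± 0.115 CPM with the combination and 0.0461 ± 0.0507 CPM with ipatasertib (SD, n = 3 each). NRG2 passed the filter only through libraries with tazemetostat, and without it 4 ligands rose. EREG and AREG did not pass (-0.06, SE 0.08 and 0.10, SE 0.13).

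The list of targets that FOXO factors induce and genes of PI3K feedback held 36 genes, all tested. Of these, 22 rose and 2 fell (61.1% and 5.56%, against 21.8% and 17.3% of all genes), with a median of 0.31. PDK4, which inactivates pyruvate dehydrogenase, was at 37.9, 43.6 and 41.7 CPM with the combination and at 14.6, 16.3 and 15.6 CPM with ipatasertib. It was at 2.84, 3.47 and 3.05 CPM with tazemetostat and 1.90, 1.86 and 2.03 CPM with DMSO. The interaction was 0.71 (SE 0.15). SGK1, a kinase related to AKT, rose by 1.13 (SE 0.07) and averaged 54.2 CPM with the combination, 24.7 with ipatasertib, 44.3 with tazemetostat and 38.1 with DMSO, so ipatasertib alone was lowest. TRIB2, a pseudokinase, rose by 1.66 (SE 0.08) and IRS2, an adaptor of insulin receptors, by 0.80 (SE 0.06). CDKN1A, which encodes the cell cycle inhibitor p21, was at 38.5, 27.9 and 37.9 CPM with the combination and at 13.2, 13.3 and 12.1 CPM with ipatasertib, and lower in combination B than in A or C. It averaged 66.3 CPM with tazemetostat and 28.1 CPM with DMSO, so its order of groups differed from that of PDK4. EGR1 is on this list as well as on that of ERK feedback, and averaged 57.9 CPM with tazemetostat and 42.8 CPM with DMSO. The genes that fell were IRS1 (-0.63, SE 0.09), the other main insulin receptor adaptor, and FBXO32 (-0.64, SE 0.06), a ubiquitin ligase of muscle atrophy. The list had 7 positive interactions and 0 negative ones by edgeR's test, 2 negative at an unadjusted p under 0.05 and 1 with DESeq2. Without combination B it had 12 positive and 3 negative, and without tazemetostat A 1 was negative.

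Of 8 genes tested among the IGF binding proteins and their receptors, 5 rose and 2 fell (62.5% and 25%, against 21.8% and 17.3% of all genes). Without combination B or ipatasertib B, 1 fell. IGFBP2 was at 33.4, 30.7 and 34.7 CPM with the combination and at 4.94, 4.11 and 5.17 CPM with ipatasertib, a log2 change of 2.79 (SE 0.10) that was 2.68 (SE 0.10) without ipatasertib. IGFBP7 rose by 0.91 (SE 0.13) and IGFBP3 by 0.51 (SE 0.09). IGFBP4 fell, to 186 ± 18.4 CPM with the combination, against 293 ± 6.21 CPM with ipatasertib (SD, n = 3 each), and IGFBP6 fell by 0.28 (SE 0.09). Binding proteins of the same ligands thus moved in opposite directions.

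DNA replication genes fell by small steps. Of 42, all tested, 34 fell and 1 rose (80.95% and 2.38%, against 17.3% and 21.8% of all genes), with a median of -0.25. In the comparison without ipatasertib, 13 of the same 42 rose and 5 fell, with a median of 0.08. The interaction was negative for 23 of the 42 and positive for none, against 1.75% and 1.87% of all genes. It was positive for none at an unadjusted edgeR p under 0.05 or with DESeq2, which called 28 negative. The count of 23 was 11 without ipatasertib A, 13 without combination C, ipatasertib B, tazemetostat B or DMSO B, 14 without DMSO A or DMSO C, and 29 without combination B. TYMS, which makes thymidylate, was at 19.7, 16.4 and 20.2 CPM with the combination and at 31.3, 32.1 and 28.7 CPM with ipatasertib, against 41.7, 36.99 and 37.9 CPM with tazemetostat and 44.02, 41.4 and 39.9 CPM with DMSO. MCM10, which helps start replication forks, was at 39.9, 41.3 and 42.6 CPM and at 56.2, 55.3 and 54.3 CPM with ipatasertib present, and at 104, 106 and 102 CPM and 99.7, 99.4 and 96.5 CPM without it. Both genes were lowest in the combination libraries, and their interactions were -0.60 (SE 0.11) and -0.50 (SE 0.08). ORC1, of the origin recognition complex, fell by 0.47 (SE 0.07) and POLA2, of DNA polymerase alpha, by 0.37 (SE 0.06). CCNE1, the cyclin that drives entry into S phase, was the 1 that rose (0.33, SE 0.07), though by less than without ipatasertib (0.81, SE 0.07).

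Mitotic genes fell at 14 of 32 (43.8%, against 17.3% of all genes), with a median of -0.15. None was higher by edgeR's test (21.8% of all genes were), at an unadjusted p under 0.05 or with DESeq2. The count of mitotic genes that fell depended on combination B. Their median level relative to ipatasertib was -0.25 on the log2 scale in combination A, -0.24 in combination C and -0.04 in combination B. Without that library 20 fell, and without it and tazemetostat A 24 fell. AURKB, a kinase of chromosome segregation, was at 95.9, 82.1 and 87.9 CPM with the combination and at 117, 116 and 111 CPM with ipatasertib. BIRC5, its partner survivin, fell by 0.31 (SE 0.05), the kinase PLK1 by 0.28 (SE 0.06) and the spindle factor TPX2 by 0.28 (SE 0.05). MKI67, the common proliferation marker, was at 283, 255 and 227 CPM with the combination and 241, 259.9 and 314 CPM with ipatasertib, and the groups overlapped. The interaction was negative for 5 mitotic genes, for 23 without combination B, for 10 without tazemetostat A, for 3 without combination C, ipatasertib A, ipatasertib B, tazemetostat B, tazemetostat C or any DMSO library, and for 18 when libraries were scaled by total counts. Among 12 G1 regulators tested, CDKN1A, CDKN1C (1.23, SE 0.25) and CCND1, which encodes cyclin D1 (0.39, SE 0.05), rose. CDK6 (-0.37, SE 0.07), CDK4 (-0.20, SE 0.06) and the pocket protein gene RBL1 (-0.37, SE 0.06) fell.

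**Figure D4:**
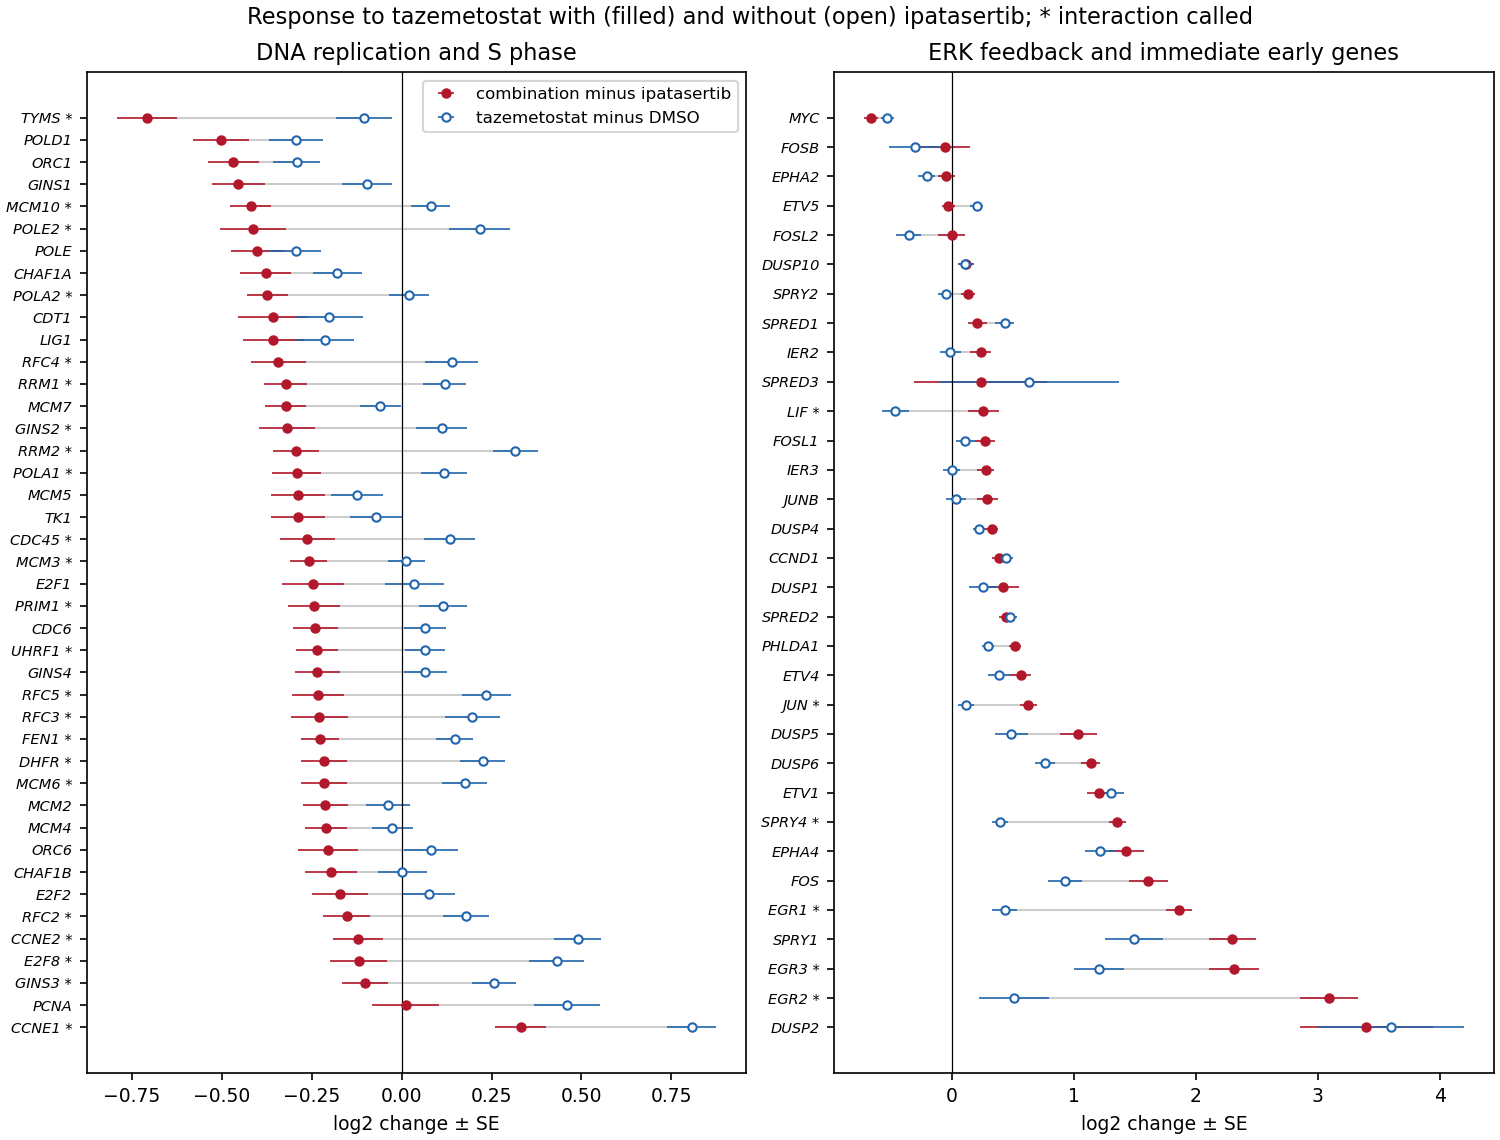
Log2 change ± SE (n = 3 libraries a group) of each gene of DNA replication and S phase (left panel) and of ERK feedback (right panel) with ipatasertib (filled red, combination minus ipatasertib) and without it (open blue, tazemetostat minus DMSO); a star marks a called interaction. Red points lie below 0 for 40 of 42 replication genes, and most ERK feedback genes lie above 0 in both comparisons.

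Genes of ribosome biogenesis fell at 10 of 25 tested (40%, against 17.3% of all genes), with a median of -0.15. Without combination B 15 fell. None was higher by edgeR's test (21.8% of all genes were), at an unadjusted p under 0.05 or with DESeq2. NOP56, a core protein of box C/D small nucleolar complexes, was at 136 ± 3.56 CPM with the combination and 181 ± 2.39 CPM with ipatasertib (SD, n = 3 each; log2 change -0.42, SE 0.05). NOP2 (-0.37, SE 0.06), NOP16 (-0.36, SE 0.07) and NOLC1 (-0.33, SE 0.05) fell as well. Without ipatasertib 11 fell and the median was -0.16.

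Lipid synthesis genes rose at 21 of 35 tested and fell at 3 (60% and 8.57%, against 21.8% and 17.3% of all genes). The median was 0.29. SCD, which puts double bonds into fatty acids, was at 5966, 5926 and 5917 CPM with the combination and at 1994, 2118 and 2153 CPM with ipatasertib. It rose by 1.51 (SE 0.06), the largest change of the 35. INSIG1, which holds back sterol synthesis, rose by 0.88 (SE 0.07) and ACSS2, which makes acetyl-CoA from acetate, by 0.66 (SE 0.06). The genes that fell were ACLY (-0.22), EBP (-0.23) and ELOVL6 (-0.18), and 1 fell without ipatasertib B. Without ipatasertib 25 of the 35 rose. INSIG1 rose less with ipatasertib than without it (interaction -0.44, SE 0.09).

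Glycolysis genes fell at 8 of 20 and rose at 1 (40% and 5%, against 17.3% and 21.8% of all genes). Without ipatasertib A 4 fell, and without ipatasertib B 5. The glucose transporter SLC2A1 fell by 0.50 on the log2 scale (SE 0.07), and the enzymes GPI (-0.33, SE 0.06) and PGAM1 (-0.29, SE 0.07) fell too. ENO2, the neuronal enolase, was the 1 that rose (0.52, SE 0.07); without combination B, 4 rose. Autophagy and lysosome genes rose at 11 of 36 and fell at 3 (30.6% and 8.33%, against 21.8% and 17.3% of all genes). Their median was 0.10. WIPI1, of the early autophagosome, rose by 0.97 (SE 0.08), the lysosomal enzymes NEU1 and CTSD by 0.61 (SE 0.06) and 0.55 (SE 0.07), and the autophagy receptor SQSTM1 by 0.54 (SE 0.07). Among those that fell were ATG16L2 (-0.38) and GLA (-0.35), and 1 fell without combination B or ipatasertib C.

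ATF4 is a transcription factor of the amino acid response. Of 27 genes on its list, 9 rose and 11 fell (33.3% and 40.7%, against 21.8% and 17.3% of all genes). ATF3 (1.51, SE 0.11) and NUPR1 (0.69, SE 0.08), stress-induced regulators, and VEGFA (0.68, SE 0.06), the angiogenic factor, rose. The glutamine transporter SLC1A5 fell to 191 ± 25.6 CPM with the combination, against 299.6 ± 12.9 CPM with ipatasertib (SD, n = 3 each; log2 change -0.65, SE 0.08). ATF4 RNA did not pass (0.12, SE 0.05). Without combination B the median of the list was -0.04, against 0.06 with it.

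Interferon-stimulated genes rose at 16 of 42 tested and fell at 6 (38.1% and 14.3%, against 21.8% and 17.3% of all genes). The median was 0.23. Of the 42, 3 passed the filter only through libraries with tazemetostat. Without them 13 rose and the median was 0.22. OAS1, a sensor that starts RNA decay, was at 4.58, 4.50 and 4.44 CPM with the combination and at 1.18, 0.875 and 1.04 CPM with ipatasertib, and CMPK2, a nucleotide kinase, at 2.65, 2.57 and 1.80 CPM and at 0.351, 0.342 and 0.565 CPM. GBP2, a guanylate-binding GTPase, rose over 2-fold, at 77.3, 86.9 and 80.1 CPM and at 26.6, 25.2 and 27.5 CPM. Its relative GBP1 did the reverse, at 1.003, 1.38 and 1.31 CPM with the combination and at 3.16, 3.54 and 2.87 CPM with ipatasertib, and ISG15 (-0.25, SE 0.14) and IFI6 (-0.13, SE 0.17) did not pass. Of 16 nucleic acid sensing genes, 4 rose and 3 fell, near the shares of all genes (25% and 18.8%, against 21.8% and 17.3%). Without combination A 6 fell, and without ipatasertib A or ipatasertib B 1 fell. IFI16 (0.50, SE 0.09), a DNA sensor, TRIM25 (0.34, SE 0.06), a ubiquitin ligase of RNA sensing, and the RNA sensors IFIH1 (0.34, SE 0.09) and DDX58 (0.52, SE 0.14; its libraries overlapped) rose. MB21D1, which encodes the DNA sensor cGAS (-0.52, SE 0.10), TMEM173, which encodes STING (-0.23, SE 0.08), and IRF3 (-0.33, SE 0.11) fell.

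In antigen presentation 9 of 24 tested fell and 6 rose (37.5% and 25%, against 17.3% and 21.8% of all genes). The peptide transporter genes TAP1 (-0.40, SE 0.07) and TAP2 (-0.73, SE 0.08) and the immunoproteasome subunit gene PSMB9 (-0.63, SE 0.11) fell. HLA-B, a class I molecule, rose by 0.64 (SE 0.07), while B2M, which pairs with it, did not pass (0.09, SE 0.08). The other 5 that rose were CD74 and 4 class II HLA genes, none above 0.570 CPM on average with the combination, and they passed the filter only through libraries with tazemetostat. HLA genes resemble each other, and reads of near-identical copies may be split between them.

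NF-kB and inflammatory cytokine genes rose at 9 of 35 and fell at 8, near the shares of all genes (25.7% and 22.9%, against 21.8% and 17.3%). PTGS2, the inducible cyclooxygenase, was at 1085, 1312 and 1189 CPM with the combination and at 608, 642 and 676 CPM with ipatasertib. IL1B went the other way, at 15.3, 16.8 and 16.9 CPM and at 28.1, 30.04 and 26.7 CPM, with IL18 up by 0.64 (SE 0.07) and the chemokine CXCL2 down by 0.76 (SE 0.09). Of 37 axon guidance genes tested, 14 rose and 9 fell (37.8% and 24.3%, against 21.8% and 17.3% of all genes). The semaphorins SEMA3A (1.14, SE 0.07) and SEMA4D (1.04, SE 0.08) rose, and the receptor NRP2 (-0.80, SE 0.06) and the ligand SLIT2 (-0.75, SE 0.06) fell. Markers of other cell types were tested for 15 of 25 genes, of which 4 rose and 5 fell (26.7% and 33.3%, against 21.8% and 17.3% of all genes). Without combination C or ipatasertib C, 2 rose. Of those that fell, 4 were the collagens and proteoglycans above and the fifth was CD68 (-0.22, SE 0.07), a lysosomal protein of macrophages that these cells express. Those that rose, PTPRC, PECAM1, CDH5 and RGS5, averaged 0.959 to 4.27 CPM with the combination and 0.452 to 2.90 CPM with ipatasertib, and their part in the results was not tested.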

How the data were processed

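The authors deposited whole-number read counts per gene, not normalized, for each of 12 libraries. A deposited table of normalized values for the same libraries was not used. Per the submitters' processing notes, the authors used STAR, SAMtools, HTSeq and DESeq2 with build hg19. The sources used here do not give tool versions, the annotation or the strand setting, so overlapping and antisense genes cannot be told apart and no gene coordinates are taken from the files. Library sizes exclude all reads that were not assigned to a gene. These were 35.7% to 38.0% of reads in the combination libraries, 37.4% to 38.6% in ipatasertib, 29.8% to 30.7% in tazemetostat and 31.0% to 32.9% in DMSO libraries. The part that fell in no annotated gene averaged 23.8%, 24.6%, 18.4% and 19.7% of reads in these groups. A limit of 3 counts was 0.0600 to 0.134 CPM.

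Genes were filtered with filterByExpr, scaled by TMM and tested with edgeR 4.0.16 (quasi-likelihood test, R 4.3.3) in 1 fit of all 12 libraries with 4 group coefficients, at a Benjamini-Hochberg adjusted p under 0.05. SE is the log2 change divided by the root of the F statistic. The fit was tested on simulated data. DESeq2 1.42.0, other scalings and filters, and leaving out each library were alternatives. Counting intervals cover counting error only. The labels do not say that replicates are separate cultures, and the p-values then reflect only how these libraries vary, which may be technical. Named genes were the largest changes, smallest p-values and largest interactions among called genes whose groups do not overlap and average at least 1 CPM in the higher group. The 4 called members of each list with the smallest p, without those conditions, and a preset panel were named too. A list's exceptions, defining members and members that did not pass were added after their values were seen. Some genes are not reported here. The members and lists were chosen with earlier results of these data known. Without members that passed the filter only through libraries with tazemetostat, 22 ERK, 21 FOXO, 10 basal, 9 luminal and 8 NF-kB genes rose. A comparison of promoter composition between gene sets is void, because 75.5% of tested genes (11228 of 14874) matched a promoter, under 80%.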

Additional observations from a re-analysis of the deposited data

Results flagged for a closer look

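Of 157 genes named by rule, 42 that are reported here responded differently to tazemetostat with and without ipatasertib. The test was of the difference itself (edgeR's quasi-likelihood interaction, adjusted p under 0.05). Over all genes tested, 1.87% had a positive and 1.75% a negative interaction. The named genes are not a fair sample of all genes, since 6 in each direction were named for a called interaction. Values are the log2 change of combination over ipatasertib minus that of tazemetostat over DMSO. It was negative for 17 genes, namely NXPH2 -1.48, CD22 -1.35, IL33 -1.03, KRT5 -1.02, IL6 -0.99, CNTNAP2 -0.97, TYMS -0.60, ODZ2 -0.59, NID2 -0.54, MCM10 -0.50, IL1B -0.47, EZH2 -0.44, INSIG1 -0.44, SLC8A1 -0.42, RBL1 -0.42, POLA2 -0.39 and GREM1 -0.34. It was positive for 25 genes, namely STAT3 0.33, TGFA 0.37, KRT19 0.41, BMF 0.45, SERPINE2 0.48, GATA3 0.50, MGP 0.57, SEMA3A 0.66, SLC7A8 0.67, ELF3 0.68, PDK4 0.71, GBP2 0.74, SGK1 0.91, THBS1 0.95, SPRY4 0.96, HBEGF 1.03, EGR1 1.43, NRG1 1.54, IGFBP5 1.69, C8orf84 1.77, TNFRSF19 1.80, KCNJ2 2.11, TMEM100 2.23, ITGB3 2.33 and EGR2 2.58. Groups of 3 libraries are too small for a test of single outlying samples.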

How the results depend on the processing

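No gene called higher or lower with the combination than with ipatasertib was called in the opposite direction under any alternative run. The medians of 7 of the 28 lists, all close to 0, changed sign in some alternative, namely ATF4, BCL2 family, G1, NF-kB, antigen presentation, axon guidance and basal genes. The interaction count of 539 was the least stable, at 864 with the DESeq2 Wald test, 905 with no filter, 16 against a 1.5-fold change, 4756 without combination B and tazemetostat A (chosen after seeing the data) and 243 to 2482 when 1 library was left out, the highest without combination B. Genes higher numbered 998 and lower 123 against a 1.5-fold change, and 2726 to 3392 and 1955 to 2988 with 1 library left out. Genes over 2-fold higher numbered 693 with at least 1 CPM in 3 libraries and 635 when the filter used the ipatasertib and DMSO libraries alone, and those over 2-fold lower 82 with at least 1 CPM and 81 against a 1.5-fold change. Genes higher made up 55.8% of calls, 47.5% with no filter, 50.9% with DESeq2 size factors and 60.5% with total-count scaling. Combination and ipatasertib libraries of the same letter did not deviate together (correlations -0.059, -0.014 and 0.0016). The letters of the tazemetostat and DMSO libraries were not compared in this way. A fit with the replicate block called 3303 genes higher, 2732 lower and 753 interactions, against 3248, 2575 and 539 without it. Calls of SUZ12 and AKT1 were lost with total-count scaling, with at least 1 CPM in 3 libraries, in a fit of the combination and ipatasertib libraries alone, when the filter used the ipatasertib and DMSO libraries alone, and in 8 of 12 fits without 1 library each. EED passed without combination B. The causes were not tested.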
